A study of Homo sapiens with 11 samples.

Results

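CXCR4, its ligand CXCL12 and the decoy receptor ACKR3 were followed in xenograft tumours of mice given vehicle or Evexomostat (SDX-7320), an inhibitor of methionine aminopeptidase 2. The genes were taken by symbol, 3 of the 28152 rows of the deposited tables, and all 3 passed the filter on low counts. They were picked with the difference in CXCR4 between treated and vehicle tumours already known, so the values of all 3 in that comparison are a description and carry no test. By the labels, the tumours were grown from BT474, an established human breast cancer line given as HR+/Her2+. The marker genes given further below do not bear out the HR+ part of that label, nor do they show high ERBB2 RNA for the Her2+ part. The cells were injected into a mammary fat pad of female athymic nude mice. All mice carried a slow-release pellet of 0.72 mg estradiol made to last 90 days. Tumours entered the study above 95 cubic millimetres. The 6 vehicle libraries came from animals given mannitol in water and the 5 treated libraries from animals given Evexomostat at 12 mpk in the same solution, both under the skin every 4 days, and every library is labelled day 33. Each library is taken as 1 tumour, since the titles number them separately. All are labelled as a single line, in a host that lacks T cells but keeps its other stroma, vessels and myeloid cells. How mouse reads were handled is not given in the sources used here.

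CXCR4 is a G protein-coupled receptor that signals mainly through inhibitory G proteins and draws cells toward sources of CXCL12, a chemokine made mostly by fibroblasts, endothelium and bone marrow stroma. In breast cancer it is known for its part in spread to organs rich in CXCL12, and its gene is a known target of hypoxia-inducible factors. ACKR3 binds the same chemokine with high affinity but does not signal through G proteins in the usual way. It recruits arrestins and takes CXCL12 into the cell for breakdown, and so lowers the amount left for CXCR4.

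The sequence upstream of a start site is shown for the receptor and for the ligand because these genes were read together, and because the CXCR4 sequence holds the letters that hypoxia-inducible factors and NRF1 are known to bind. Each is the 250 bases before a RefSeq start, 5′ to 3′ on the gene's strand, in build GRCh38.p14. Capitals mark ACGTG or GCGTG (the core of hypoxia response elements), GCGCATG (one side of the palindromic NRF1 site) and TATAAA, each searched on both strands.
CXCR4, chr2:136118150-136118399, minus strand: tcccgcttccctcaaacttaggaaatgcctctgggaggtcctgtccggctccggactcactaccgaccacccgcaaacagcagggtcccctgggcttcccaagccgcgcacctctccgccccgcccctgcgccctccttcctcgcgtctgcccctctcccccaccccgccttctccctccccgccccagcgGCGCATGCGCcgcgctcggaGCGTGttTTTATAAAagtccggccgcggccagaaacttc
CXCL12, chr10:44385098-44385347, minus strand: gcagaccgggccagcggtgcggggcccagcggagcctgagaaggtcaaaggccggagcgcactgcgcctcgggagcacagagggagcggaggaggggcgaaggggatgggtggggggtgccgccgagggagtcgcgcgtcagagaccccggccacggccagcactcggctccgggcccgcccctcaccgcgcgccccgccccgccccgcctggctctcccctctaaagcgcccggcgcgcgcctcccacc

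The CXCR4 window held GCGCATG on both strands, overlapping, between 59 and 50 bases before the start, GCGTG from 39 to 35 bases before it, and TATAAA once on each strand, overlapping, between 32 and 25 bases before it. None of the 3 motifs was found in the CXCL12 window. Among 34943 windows of the same length before RefSeq starts, 43.2% held ACGTG or GCGTG, 3.74% held GCGCATG and 10.8% held TATAAA on either strand. RefSeq gives CXCR4 2 more starts: the window of the second held none of the motifs and that of the third held GCGTG once on each strand. A match of letters is a description and not evidence of binding.

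CXCR4 was lower in every Evexomostat tumour than in every vehicle tumour. Levels are CPM, counts scaled to library size with TMM factors, which correct for differences in library composition. The vehicle tumours had 11.4 CPM in replicate 001, 14.7 in 005, 26.8 in 006, 29.1 in 003, 35.5 in 004 and 38.3 in 007. The Evexomostat tumours had 4.17 CPM in replicate 007, 4.30 in 005, 5.09 in 002, 5.51 in 004 and 8.34 in 003. The groups did not overlap, and the nearest pair was vehicle replicate 001 and Evexomostat replicate 003. Vehicle tumours averaged 26.0 ± 10.9 CPM (SD, n = 6) and Evexomostat tumours 5.48 ± 1.69 (SD, n = 5), on 130 to 1240 counts per library. The fitted log2 fold change was -2.25 (SE 0.33), a level 4.75-fold lower under Evexomostat, and it ranked 42 from the lowest of 16653 genes tested. With each library left out in turn it stayed between -2.45 and -2.10. In the authors' deposited table the log2 fold change of CXCR4 is -2.16. In bulk tumour RNA, fewer cells that express a gene and less of its RNA per cell cannot be told apart.

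ACKR3 had overlapping levels in the vehicle and Evexomostat tumours. It stood at 3.60 CPM in vehicle replicate 007, 4.62 in 003, 4.85 in 001, 6.01 in 004, 7.05 in 005 and 20.3 in 006. Under Evexomostat it stood at 4.59 CPM in replicate 002, 4.73 in 007, 5.96 in 005, 7.79 in 004 and 8.22 in 003. Vehicle replicate 006 was far above all other tumours, and the other 10 lay within one narrow range. The means were 7.74 ± 6.26 CPM (SD, n = 6) and 6.26 ± 1.69 (SD, n = 5), while the medians were 5.43 and 5.96. The fitted log2 fold change was -0.31 (SE 0.41), and it was 0.26 without vehicle replicate 006, so the sign of the difference rests on that tumour. The same tumour had the highest summed level of 8 endothelial marker genes, 23.6 RPM (reads scaled to the library total alone) against 9.25 to 13.3 in the other vehicle tumours and 10.4 to 15.3 under Evexomostat. The defining endothelial genes CDH5, with 0 to 2 counts per library, and EMCN, with 0 to 5, were at or near 0 throughout. The part of endothelial cells in the ACKR3 level was not tested.

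CXCL12 varied more from tumour to tumour than either receptor. The vehicle tumours had 19.4 CPM in replicate 005, 21.3 in 003, 36.6 in 006, 44.6 in 004, 93.3 in 001 and 250.6 in 007. The Evexomostat tumours had 12.1 CPM in replicate 007, 12.2 in 002, 26.3 in 004, 49.7 in 005 and 52.4 in 003. The groups overlapped, with 2 vehicle tumours above and 2 Evexomostat tumours below the whole of the other group. The means were 77.6 ± 88.9 CPM (SD, n = 6) and 30.6 ± 19.6 (SD, n = 5), and the medians 40.6 and 26.3. The fitted log2 fold change was -1.35 (SE 0.67), and without vehicle replicate 007 it was -0.49. The summed level of 9 fibroblast and pericyte genes was 606.7 RPM in that tumour and 2073 RPM in vehicle replicate 004, where CXCL12 was at 44.6 CPM. Collagen genes made up most of this sum, with COL3A1 at 182.8 to 1757 RPM, while the fibroblast genes DCN and LUM averaged 0.390 and 1.05 RPM, so the sum mostly measures collagen RNA. None of these 9 genes passed the test, beside 0.606% of all genes tested, so nothing is read from that count. The sum ranged from 398.5 to 2073 RPM under vehicle and from 506.6 to 1134 under Evexomostat. The part of fibroblasts in the CXCL12 level was not tested.

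**Figure D1:**
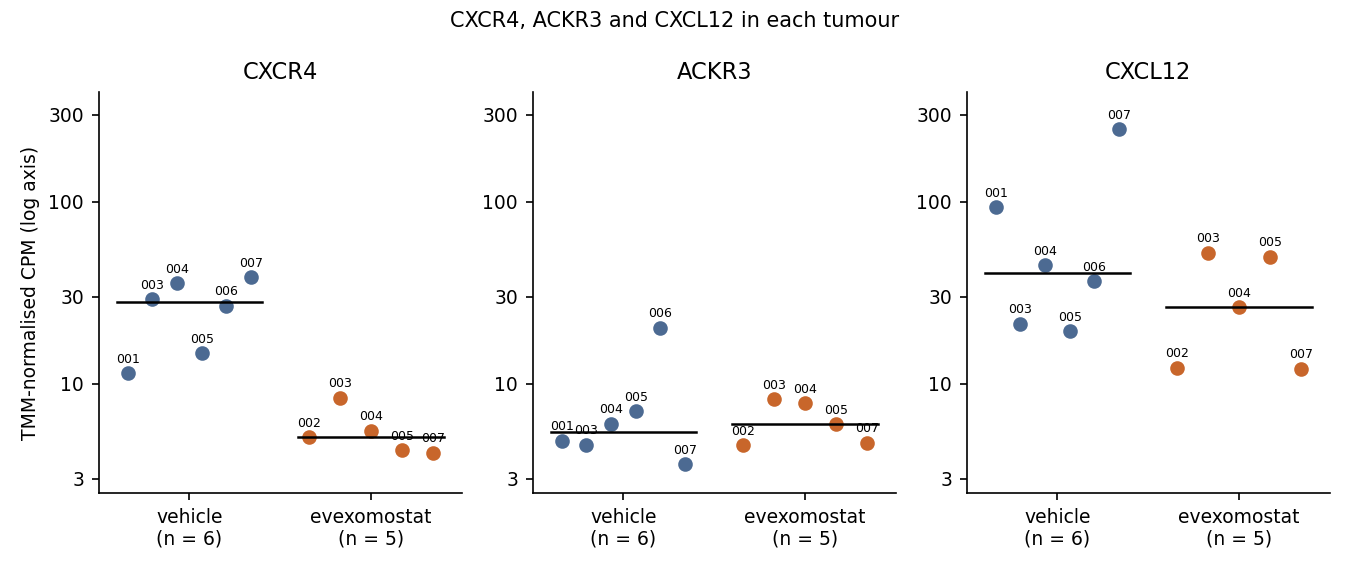
TMM-normalised CPM on a log axis for CXCR4, ACKR3 and CXCL12, with 1 labelled point per tumour and a line at the group median. The CXCR4 points of the groups do not overlap, the ACKR3 points overlap except for vehicle replicate 006 at 20.3 CPM, and the CXCL12 points overlap and spread from 12.1 to 250.6 CPM.

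Counted by the fit across all genes, 1 of the 3 members, CXCR4, was among the genes past an adjusted p of 0.05, beside 0.606% of all genes tested (0.432% lower and 0.174% higher). CXCR4 was also the only member whose groups did not overlap, beside 2.97% of all genes tested (1.64% lower and 1.33% higher). Since the members were picked on this comparison, nothing is read from these counts. CXCR4 was no longer among the genes past the threshold when Evexomostat replicate 002, 005 or 007 was left out. In those fits only 2, 1 and 3 of all genes tested passed. The fold change of CXCR4 stayed as given above.

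The balance of the receptors within a tumour does not depend on how libraries are scaled. In vehicle tumours there were 1.32 to 10.6 CXCR4 reads per ACKR3 read, with a median of 4.13. In Evexomostat tumours there were 0.707 to 1.11, with a median of 0.882, and the groups did not overlap. The lowest vehicle ratio was in replicate 006, the tumour with the highest ACKR3, and the highest was in replicate 007. The number of CXCL12 reads per CXCR4 read ran from 0.731 to 8.19 under vehicle, with a median of 1.34, and from 2.40 to 11.6 under Evexomostat, with a median of 4.78. These groups overlapped, because vehicle replicates 001 and 007 had ratios of 8.19 and 6.54 while the other 4 lay between 0.731 and 1.37. Both ratios contain CXCR4, so they restate its lower level beside its partners and are no separate evidence.

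**Figure D2:**
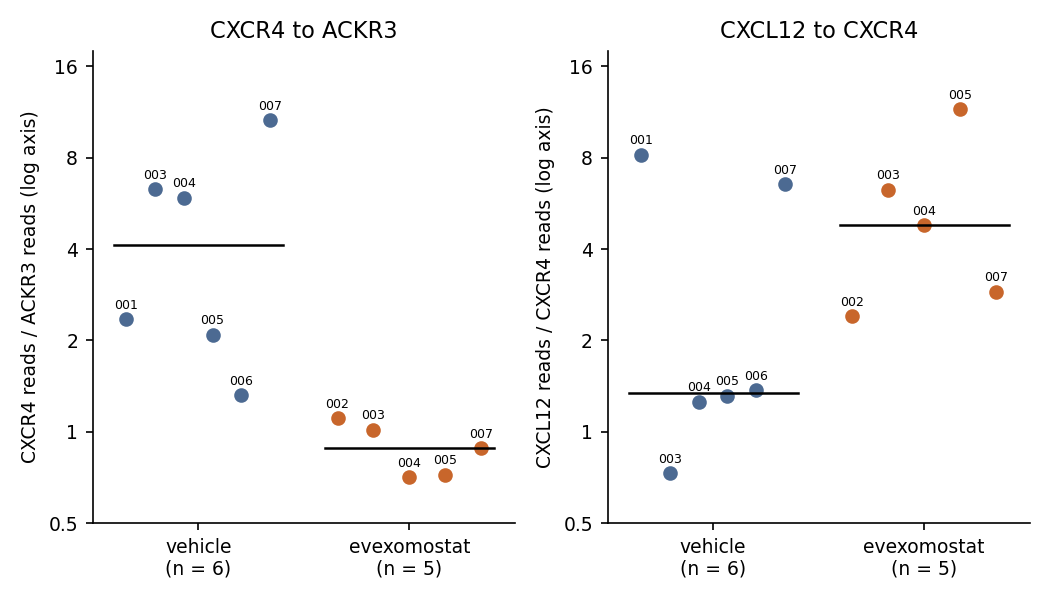
Ratio of reads within each tumour on a log axis, CXCR4 to ACKR3 on the left and CXCL12 to CXCR4 on the right, with 1 labelled point per tumour and a line at the group median. The CXCR4 to ACKR3 ratio is at least 1.32 in all 6 vehicle tumours and at most 1.11 in all 5 Evexomostat tumours, whereas the CXCL12 to CXCR4 ratios overlap.

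Levels of different genes were compared per length of their exons in GENCODE release 29, which may differ from the annotation the authors counted on. On this scale, RPKM, CXCR4 was the most abundant of 24 chemokine receptors in vehicle tumours, with a median of 14.0 and a range of 4.86 to 18.2. ACKR3 came second, with a median of 2.41 and a range of 1.56 to 9.57, so the ranges of these neighbours overlapped, although CXCR4 was the higher of the pair in 6 of 6 vehicle tumours. CCR1, a receptor for inflammatory CC chemokines, came next, with a median of 1.31, and after it CCR10, with 0.480. Under Evexomostat the order of the first pair was turned, with a median of 2.85 for ACKR3 and 2.54 for CXCR4. Their ranges, 2.09 to 4.04 and 2.09 to 4.48, overlapped almost fully, and CXCR4 was the higher in 2 of 5 tumours. CXCL12 ranked 11 of 35 chemokine ligands by its vehicle median, 7.95 RPKM, and 12 of 35 under Evexomostat, at 5.23. CCL5 led the ligands, with medians of 350.2 and 244.0.

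**Figure D3:**
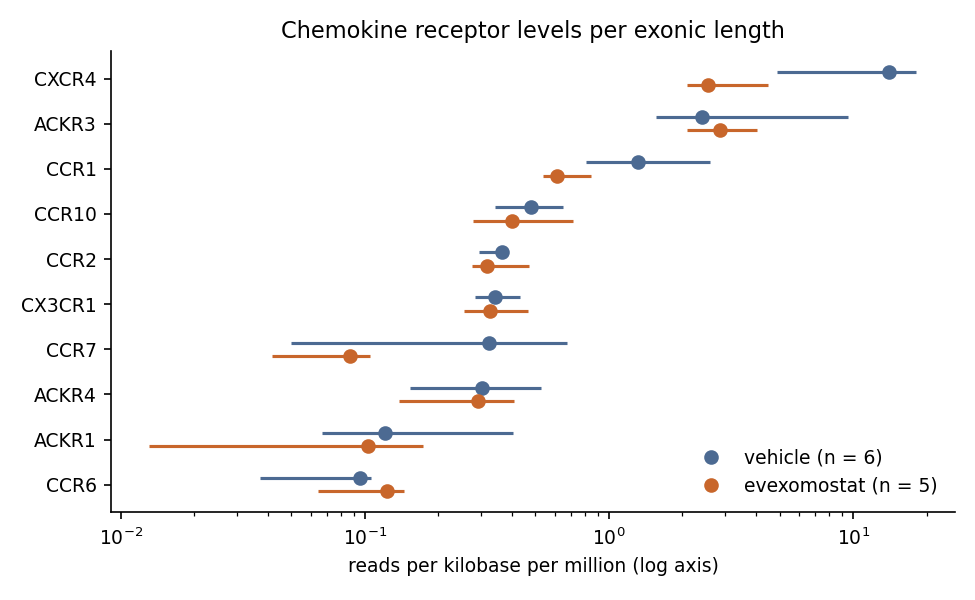
Median (point) and range (line) of RPKM on a log axis for the 10 chemokine receptors with the highest vehicle medians, over 6 vehicle and 5 Evexomostat tumours. CXCR4 leads under vehicle at a median of 14.0 and lies within the range of ACKR3 under Evexomostat at 2.54.

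The members also differed in how much they varied among tumours of the same group. The call of a difference between groups depends on this spread, so it is not independent of the choice of members. Over the 6 vehicle tumours the SD of log2 CPM was 0.71 for CXCR4, 0.87 for ACKR3 and 1.40 for CXCL12. These lay above 87.5%, 94.2% and 99.3% of the 13068 genes with a mean log2 CPM of at least 1. Over the 5 Evexomostat tumours the SDs were 0.40, 0.39 and 1.03, above 88.0%, 87.3% and 99.6% of the same genes. CXCL12 was thus among the most variable genes in either group.

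Between untreated tumours, CXCR4 was compared with the level of 23 hypoxia-induced genes, none of which is a member. The mean log2 CPM of these genes was 5.70 in vehicle replicate 001, 5.84 in 006, 6.16 in 005, 6.77 in 004, 7.11 in 003 and 7.65 in 007. Replicate 001 was lowest and replicate 007 highest in both CXCR4 and the hypoxia mean. Over the 6 vehicle tumours Pearson's r was 0.77 (exact permutation p = 0.0861, two-sided, adjusted p = 0.258) and Spearman's rho was 0.89 (exact permutation p = 0.0333, adjusted p = 0.1). The adjustment covers the 3 relations computed, and neither coefficient passed it. Without the 2 tumours farthest from the median CXCR4 level, replicates 001 and 005, r was 0.76. CXCR4 and CXCL12 gave r = 0.21 and rho = 0.37 (exact permutation p = 0.708 and 0.497, both adjusted over the 3 relations to 0.943 and 0.497), and r was 0.77 without the same 2 tumours. CXCR4 and ACKR3 gave r = -0.05 and rho = -0.49 (exact permutation p = 0.943 and 0.356, adjusted p = 0.943 and 0.497), and r was -0.74 without them. These last coefficients rest on which tumours are kept. Under Evexomostat the hypoxia mean was 5.31 to 5.98, and replicate 003, which had the most CXCR4, had the lowest.

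**Figure D4:**
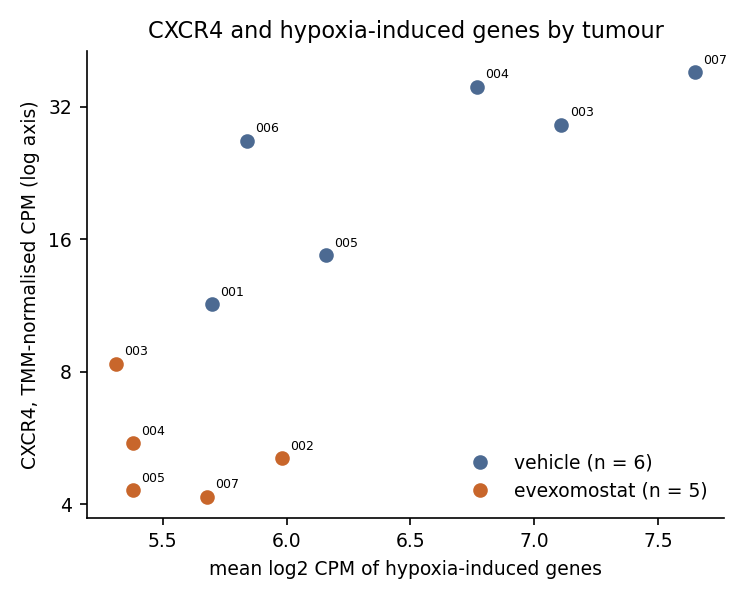
CXCR4 in TMM-normalised CPM (log axis) against the mean log2 CPM of 23 hypoxia-induced genes, with 1 labelled point per tumour. The vehicle tumours run from replicate 001 at 11.4 CPM to replicate 007 at 38.3 CPM, and all 5 Evexomostat tumours lie at 8.34 CPM or less with a hypoxia mean of 5.98 or less.

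In the fit across all 16653 genes, 101 passed an adjusted p of 0.05 (edgeR's quasi-likelihood test), 29 higher and 72 lower under Evexomostat. With upper quartile scaling the split was 28 higher and 42 lower, and with limma on log2(RPM + 1) it was 43 higher and 31 lower. Other genes of the CXCR4 pathway were read from 6 lists, written without the members but with earlier results of these data known. The shares of listed genes set beside those of all genes are therefore a description. Of their 155 genes 123 were tested, and 2 passed the threshold, CCL20 and P4HA1, both lower, which is 1.63% beside 0.606% of all genes tested. At an unadjusted p under 0.05 stood 46 of the 123 (37.4%), beside 13.4% of all genes tested (8.55% lower). The median log2 fold change was -0.23 over the 123 genes and -0.04 over all genes. Vehicle replicate 001 stood apart from the other libraries, where the 100 top genes took 23.9% of all reads (16.2% to 17.9% elsewhere). Without it 25 listed genes passed, all lower, beside 5.22% of all genes in either direction (537 genes lower and 328 higher). Without Evexomostat replicate 002, 004, 005 or 007 no listed gene passed in edgeR's test, where 2, 28, 1 and 3 of all genes did. Without replicate 003 of that group 1 listed gene passed, beside 46 of all genes. Without vehicle replicate 005 the count was 5, beside 77 of all genes.

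Among the genes listed for receptor signalling and desensitisation, 0 of 42 tested genes passed edgeR's test. This broad list runs from G proteins and arrestins to genes farther downstream, and it includes the adhesion gene CDH2. An unadjusted p under 0.05 was found for 5 (11.9%, beside 13.4% of all genes), and the median log2 fold change was -0.07. GNAI1, an inhibitory G protein subunit of the kind CXCR4 uses, averaged 48.4 ± 11.8 CPM in vehicle tumours (SD, n = 6) against 28.7 ± 4.01 in treated ones (SD, n = 5), without overlap (log2 fold change -0.75, SE 0.17, edgeR adjusted p 0.0714). Its more abundant relative GNAI2 was at 345.1 ± 38.0 and 331.7 ± 26.7 CPM, a log2 fold change of -0.06. ARRB2, an arrestin that binds both receptors, and GRK2, a kinase that phosphorylates active receptors, had log2 fold changes of 0.06 and -0.03, with edgeR adjusted p-values of 0.904 and 0.961. The signs of GNAI2 and GRK2 flipped under other scalings. LYN, a Src-family kinase, and PIK3R5, a regulatory subunit of a phosphoinositide 3-kinase driven by G proteins, had log2 fold changes of -0.95 and -0.80 (edgeR adjusted p 0.209 and 0.325). LYN had -0.52 without vehicle replicate 007 and PIK3R5 had -0.39 without vehicle replicate 003. Without vehicle replicate 001, where 5.22% of all genes passed, GNAI1 passed (log2 fold change -0.64, edgeR adjusted p 0.0312). So did STAT3, a transcription factor that lies downstream of many receptors (-0.64, edgeR adjusted p 0.0146).

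Of the other ligands and the proteins that hold or cut the ligand, 0 of 21 tested genes passed edgeR's test, 7 (33.3%, beside 13.4% of all genes) had an unadjusted p under 0.05, and the median log2 fold change was -0.20. DPP4, a surface protease that removes the first residues of CXCL12 and inactivates it, was at 114.6 ± 62.6 CPM (SD, n = 6) and 68.1 ± 17.3 (SD, n = 5), a log2 fold change of -0.75 (edgeR adjusted p 0.366). CXCL11, which ACKR3 also binds, was at 11.4 ± 3.95 and 9.80 ± 2.93 CPM, a log2 fold change of -0.22 (edgeR adjusted p 0.785). ADM, a vessel-active peptide that ACKR3 can clear and that hypoxia induces, had a log2 fold change of -1.62 (edgeR adjusted p 0.14). HMGB1, which binds CXCL12, had -0.05, with a sign that flipped under limma on log2(RPM + 1), and CD74, a receptor for the other CXCR4 ligand MIF, had 0.50 (edgeR adjusted p 0.692). MMP9, a gelatinase, had 0.76 (edgeR adjusted p 0.441), and 0.35 without Evexomostat replicate 004. MIF itself is listed at 0 in all 11 libraries, although most cells express it, and no value is taken from that row.

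Most of the other chemokine receptors were too low to test. Of 22, 7 passed the filter and 0 of these passed edgeR's test, with 2 (28.6%, beside 13.4% of all genes) at an unadjusted p under 0.05. CCR1 was at 4.03 ± 1.94 CPM (SD, n = 6) and 1.74 ± 0.323 (SD, n = 5), without overlap (log2 fold change -1.21, SE 0.32, edgeR adjusted p 0.107). CCR7, a receptor that guides cells to lymph nodes, was at 0.834 ± 0.541 and 0.182 ± 0.0673 CPM, on 3 to 52 counts per library (log2 fold change -2.17, SE 0.53, edgeR adjusted p 0.0851). Both passed without vehicle replicate 001, at edgeR adjusted p-values of 0.0332 and 0.0121, where 5.22% of all genes passed. ACKR4, another scavenging receptor, had -0.34 (edgeR adjusted p 0.746), and CXCR3, the signalling receptor for CXCL11, had 0 to 4 counts per library and was not tested.

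All 17 tested genes among the other chemokine ligands had a log2 fold change below 0, with a median of -0.96. Of these, 11 (64.7%) had an unadjusted p under 0.05, beside 13.4% of all genes in either direction and 8.55% lower, and 1 fell. In the alternatives that tested the same 17 genes, 14 to 17 were below 0: 16 with upper quartile scaling, 15 with limma on log2(RPM + 1), and 14 in both fits on the 8 libraries with shared replicate numbers. CCL20, which attracts cells with CCR6, fell: vehicle tumours averaged 145.3 ± 96.5 CPM (SD, n = 6) and treated tumours 20.9 ± 9.59 (SD, n = 5), with no overlap. Its log2 fold change was -2.80 with an SE of 0.48 (edgeR adjusted p 0.0247). CXCL1, a neutrophil attractant, was at 125.3 ± 103.0 and 24.9 ± 11.3 CPM, also without overlap (log2 fold change -2.33, edgeR adjusted p 0.0613). CXCL5, of the same kind, and CCL7, a monocyte attractant, had -2.55 and -2.14 (edgeR adjusted p 0.24 and 0.161). CXCL5 had -1.17 without vehicle replicate 004 and CCL7 had -1.30 without vehicle replicate 007. CXCL1, CXCL3 and CXCL16 passed beside CCL20 without vehicle replicate 001, where 5.22% of all genes passed.

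Of 14 genes known to act on the CXCR4 gene, all transcription factors except VHL, 0 passed edgeR's test. An unadjusted p under 0.05 was found for 4 (28.6%, beside 13.4% of all genes), and the median log2 fold change was -0.23. HIF1A, the subunit of hypoxia-inducible factor that oxygen controls, was at 164.2 ± 87.1 CPM (SD, n = 6) and 63.4 ± 15.8 (SD, n = 5), a log2 fold change of -1.37 (edgeR adjusted p 0.141). Its lowest vehicle value, 34.2 CPM, was in replicate 001. Without that library HIF1A passed (log2 fold change -1.58, edgeR adjusted p 0.00873), as did ARNT, NFKB1 and RELA, beside 5.22% of all genes. EPAS1, which encodes the related subunit, had a log2 fold change of 0.14 and VHL, which marks both subunits for breakdown, -0.36 (edgeR adjusted p 0.866 and 0.618), though VHL had -0.058 without vehicle replicate 001. FOXC1 and SNAI2 had 0.83 and -0.44 (edgeR adjusted p 0.323 and 0.364).

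All 23 hypoxia-induced genes had a log2 fold change below 0 (22 with limma on log2(RPM + 1) and 21 without vehicle replicate 007), with a median of -1.06. An unadjusted p under 0.05 was found for 18 (78.3%), all lower, beside 13.4% of all genes in either direction and 8.55% lower. P4HA1, a collagen prolyl hydroxylase subunit, fell: vehicle tumours averaged 128.1 ± 46.9 CPM (SD, n = 6) and treated tumours 49.7 ± 6.19 (SD, n = 5), with no overlap. Its log2 fold change was -1.37 with an SE of 0.23 (edgeR adjusted p 0.0233). CA9, a carbonic anhydrase, NDRG1 and HK2, a hexokinase, had -3.86, -2.12 and -2.06 (edgeR adjusted p 0.0663, 0.17 and 0.206). Without vehicle replicate 007 they had -3.27, -1.68 and -1.22, and without Evexomostat replicate 007 CA9 had -4.54. Without vehicle replicate 001, 12 of the 23 passed, all lower, beside 5.22% of all genes in that fit in either direction (537 genes lower and 328 higher).

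**Figure D5:**
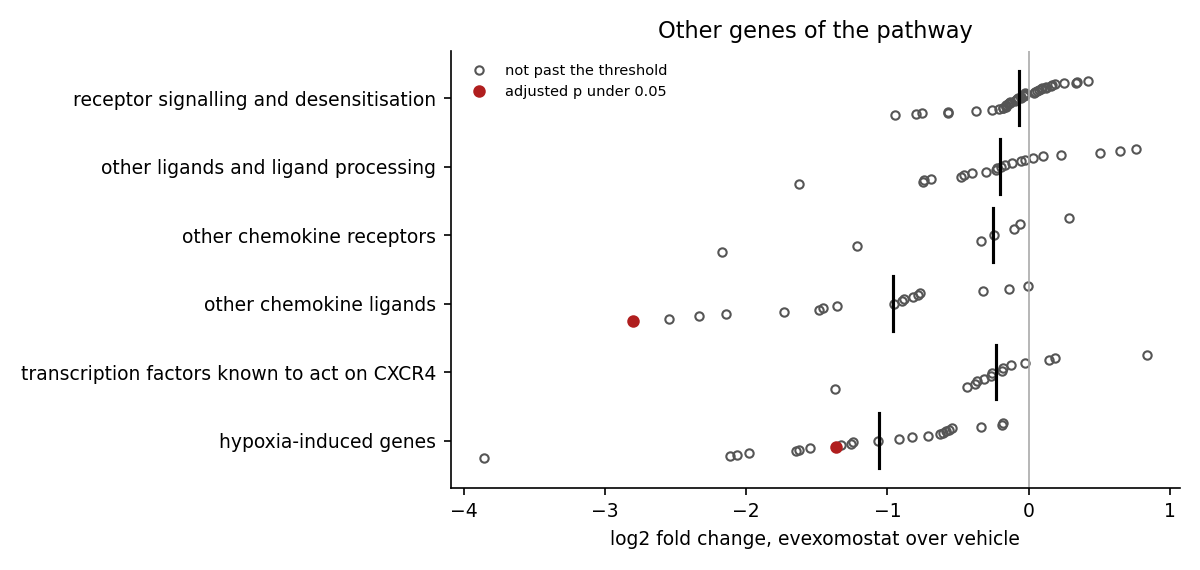
Log2 fold change of Evexomostat over vehicle for each tested gene of 6 lists, with a black line at the list's median and filled points for genes past an adjusted p of 0.05. CCL20 and P4HA1 are the filled points, and the medians of the chemokine ligands (-0.96) and hypoxia-induced genes (-1.06) lie farther below 0 than the other lists.

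The genes most like CXCR4 between tumours of one group were taken by Pearson's r of log2 CPM after the mean of each group was subtracted, over all 11 libraries and 13065 genes other than the members. The 10 highest were TEP1, GSE1, SERINC4, GNAS, USP32P3, WDR27, ZDHHC7, SS18, CHMP1B2P and HERC2P2, with r from 0.953 down to 0.925. None of them was on a list above, and 0 of these 10 passed edgeR's test between the groups (0 at an unadjusted p under 0.05). By their symbols USP32P3, CHMP1B2P and HERC2P2 are pseudogenes, and their counts are uncertain. Without vehicle replicate 001, 2 of the 10 were still among the first 10, so the list depends on that library. On the same measure CXCL12 had r = 0.28 and ACKR3 r = 0.08 with CXCR4.

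Library totals ran from 22808033 to 39249329 counts. The labelled line was checked against its markers: ERBB2 was at 23.0 to 65.3 RPM, ESR1 had 1 to 17 counts per library, PGR 0 to 5, and GRB7, KRT19 and CDH1 averaged under 1 RPM, while VIM averaged 1187 RPM. Of the other luminal markers, KRT8 averaged 331.6 RPM, KRT18 148.6 and XBP1 129.7, while EPCAM averaged 3.03 and FOXA1 1.05. Hormone receptor genes were thus nearly absent, which at the RNA level does not bear out the HR+ label. Of the luminal keratins, KRT8 and KRT18 were abundant and KRT19 was not. Whether the tumours are of the labelled line was not tested. Of the leukocyte markers, the sum of 10 genes was 83.7 to 137.3 RPM under vehicle and 102.8 to 127.1 under Evexomostat. None of the 8 tested passed, beside 0.606% of all genes tested, so nothing is read from that count. PTPRC, found on all leukocytes, had 44 to 79 counts per library. The leukocyte genes AIF1, with 0 to 2 counts, and FCER1G, with 2 to 13, were at or near 0. The part of leukocytes in the CXCR4 level was not tested. Skeletal muscle genes were highest in Evexomostat replicate 005, at a sum of 354.7 RPM against 3.36 to 49.5 in the other libraries, where CXCR4 was at 4.30 CPM, within its group's range.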

How the data were processed

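The authors deposited whole-number read counts per gene symbol, RPM values (each count over its library's total) and a table of log2 fold changes, p-values and adjusted p-values, beside each group's mean RPM and its SD, per the file headers. The submitters' processing notes name bcl2fastq 2.17, STAR 2.7.5c, featureCounts, Subread and edgeR, and the builds GRCh37 and hg19, with no role for each. The annotation, strand setting and handling of mouse reads are not given in the sources used here. Overlapping or near-identical genes could therefore share counts.

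Columns were matched to libraries by the code in the sample description, and groups came from titles. Recomputed RPM differed from the deposited values by at most 9.1e-13. No pair of libraries in a group was a duplicate (chi-square per degree of freedom at least 16.6). Whether the tumours were separate animals is not stated beyond their titles, so p-values measure the spread between these libraries.

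Genes were kept with filterByExpr (minimum count 10, minimum total 15), which left 16653 of 28152. The comparison used edgeR 4.0.16 (quasi-likelihood F-test, TMM factors, no covariates, R 4.3.3), with Benjamini-Hochberg adjustment over all genes tested and a threshold of 0.05. Standard errors are those implied by the F statistic. Log2 CPM used a prior count of 2. Alternatives used DESeq2 1.42.0 and limma 3.58.1, with a pseudocount of 1 for log2 RPM. At these depths 3 counts equal 0.0764 to 0.132 RPM, which covers counting error only. Correlations used all 720 pairings, so 0.00139 is the smallest p they can give.

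The members and lists were chosen with earlier results of these data known. Named were the members, every listed gene past the threshold, of the rest of each list the 3 largest absolute fold changes, 12 genes chosen by role, and the 10 genes most like CXCR4. STAT3, ARNT, NFKB1, RELA, CXCL3 and CXCL16 were added after their values were seen, as was CCL5. Promoter sequences are RefSeq's (GRCh38.p14), in which CXCR4 and CXCL12 matched. CXCR4 has 3 starts there, and the first is shown.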

Additional observations from a re-analysis of the deposited data

Results flagged for a closer look

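The members, the named genes with at least 10 counts in a library and the hypoxia mean gave 84 groups of libraries, under vehicle and under Evexomostat. In these the highest or lowest library stood far from the rest of its group 13 times, each time the highest. The nominal rate by chance is about 1 in 20 groups, or 4.2. Some of these genes were named for large fold changes, which 1 high tumour can raise. Nothing is therefore read from 13 beside 4.2. Among the members, ACKR3 stood out in vehicle replicate 006, at 20.3 CPM against 3.60 to 7.05 in the other vehicle tumours. CXCL12 stood out in vehicle replicate 007, at 250.6 CPM against 19.4 to 93.3. CXCR4 had no such library.

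Vehicle replicate 007 also stood out for LYN (117.0 CPM against 32.6 to 50.2), CCL7 (5.33 against 0.361 to 1.43) and HK2 (658.3 against 23.0 to 240.2). Vehicle replicate 001 stood out for HMGB1 (780.2 CPM against 350.4 to 408.2) and VHL (394.0 against 111.4 to 193.1). PIK3R5 did so in vehicle replicate 003 (4.62 CPM against 1.21 to 2.05) and CXCL5 in vehicle replicate 004 (7.13 against 0.0808 to 1.36). Under Evexomostat, MMP9 stood out in replicate 004 (2.65 CPM against 0.851 to 1.30), and replicate 003 stood out for GSE1 (110.6 against 88.0 to 91.4), USP32P3 (68.6 against 44.2 to 50.7) and CHMP1B2P (5.27 against 2.89 to 3.44).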

How the results depend on the processing

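The fold changes of CXCR4 and CXCL12 kept their sign and moved by less than the spread between tumours in all 19 alternatives, though that of CXCL12, -1.35, was -0.63 with sample quality weights (limma-voom) and -0.34 with the replicate block. ACKR3 changed sign, to 0.33 with the replicate block, 0.32 on the same 8 libraries with no block, and 0.26 without vehicle replicate 006. Leaving out each library gave -2.45 to -2.10 for CXCR4, -0.46 to 0.26 for ACKR3 and -1.63 to -0.49 for CXCL12.

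Genes past the threshold numbered 649 with DESeq2 (200 higher, 449 lower) and 1059 with quality weights (384 higher, 675 lower). Upper quartile scaling left 42 lower, and limma on log2(RPM + 1) 31 lower. This last scaling moved the median log2 fold change of all genes from -0.04 to 0.08. Leaving out 1 library gave 1 to 865 genes, 1 to 328 higher and 0 to 537 lower. Listed genes past the threshold numbered 23 with DESeq2, 28 with quality weights and 4 with no count filter (beside 106 of all genes). With a library left out they numbered 0 to 25. The cause was not tested.

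Replicate numbers shared by the groups (003, 004, 005 and 007) did not pair the tumours, with correlations of deviations of -0.27, 0.07, 0.05 and -0.10. With the replicate block on these 8 libraries 107 genes passed, 11 of them listed, against 733 (225 higher, 508 lower), 24 of them listed, with no block on the same 8. CCL20 and P4HA1 were not among those 11 (log2 fold change -2.96 and -1.50, edgeR adjusted p 0.0757 and 0.0565). Both passed with no block on the same 8 (edgeR adjusted p 0.0141 and 0.0148).

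Signs also changed for GNAI2 (0.0425 with log2(RPM + 1)), GRK2 (0.0225 with upper quartile scaling, 0.084 with log2(RPM + 1), -0.0956 to 0.0162 with a library left out) and HMGB1 (0.16 with quality weights, 0.11 with log2(RPM + 1), 0.18 with and without the block, -0.11 to 0.20 with a library left out). On the 8 libraries EPAS1 had -0.0298 with the block and -0.0501 with no block, and CXCL11 0.20 with either. Within vehicle, r of CXCR4 and ACKR3 was 0.10 on log2(RPM + 1) and -0.42 to 0.22 with a tumour left out. That of CXCR4 and CXCL12 was -0.34 to 0.68, and that of CXCR4 and the hypoxia mean 0.66 to 0.93. The repeats of the likeness ranking were chosen after seeing the data, and with the 6 vehicle tumours alone 4 of its 10 genes were again among the first 10.

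The log2 fold change of ACKR3, -0.31, was smaller in size than its SD of log2 CPM, 0.87 under vehicle and 0.39 under Evexomostat. That of CXCL12, -1.35, lay in size between the SDs of its groups, 1.40 under vehicle (n = 6) and 1.03 under Evexomostat (n = 5). The members had at least 98 counts in every library. CXCR3, with at most 4 counts, could not be tested at this depth.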
